A study of Mus musculus with 24 samples.

Results

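The genes described here, in all 24 libraries of a mouse colorectal tumor series, are Ly6a, Anxa1, Anxa3, Clu, S100a6, Il33, Msln and Ankrd1. They are genes known from regenerating and fetal-like gut epithelium, were taken by symbol, and make up 8 of the 24346 genes listed in each library. In short, Ly6a, Clu, Il33 and Msln were higher in tumors than in normal tissue with both genotype labels, Anxa1 passed the test with the WT label only, and Anxa3 and S100a6 passed with neither. Ankrd1 was too low to be tested.

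All libraries came from colorectal tissue of mice treated with AOM/DSS, the carcinogen azoxymethane followed by the colitis-inducing polymer dextran sulfate sodium, so the normal tissue had the treatment too. Each piece was labelled tumor or normal, and each genotype c-MAF_KO (KO) or WT. The sample titles add a number, a zygosity word or an age word, which gave 10 groups. WT-young had 4 tumors, WT-old had 1, and 3 each came from KO-8-homo, KO-8-hetero and KO-1-hetero, and every prefix had 2 normal libraries. Together these were 9 KO-labelled and 5 WT-labelled tumors, with 6 KO-labelled and 4 WT-labelled normal libraries. The labels do not explain the numbers 1 and 8, do not say in which cells c-MAF was deleted, and give neither the ages nor which libraries came from the same animal. Values are FPKM, fragments scaled by transcript length and by library size, so that levels can be set side by side between genes.

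After injury, the epithelium of the gut can leave its usual crypt programme for a while and express genes that are otherwise typical of the fetal gut. The coactivators YAP and TAZ, which act through TEAD transcription factors and are restrained by the Hippo kinases, are known to drive much of this state, and Ly6a (Sca-1) and Clu are among the markers most used for it. None of the 8 genes is confined to this epithelium. Ly6a is also made by endothelial, stromal and blood cells, Anxa1 by neutrophils and squamous epithelium, Il33 by stromal cells and Msln by the mesothelium that lines the outside of the bowel.

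In the GENCODE annotation of GRCm38 (mm10), each of the 8 is a protein-coding gene. Anxa1 (chr19:20373428-20390944, minus strand), Il33 (chr19:29925114-29960718, plus strand) and Ankrd1 (chr19:36111961-36120099, minus strand) lie on the same chromosome. Ly6a is at chr15:74994877-74998031 (minus strand), Anxa3 at chr5:96793339-96845966 (plus strand) and Clu at chr14:65968483-65981547 (plus strand). S100a6 is at chr3:90612882-90624181 (plus strand) and Msln at chr17:25748613-25754378 (minus strand). Promoter sequence from RefSeq (GRCm38.p6) was matched for 4 of the 8 genes, with 2 start sites for Il33. RefSeq places the start of Anxa1 at position 20390671 and that of Ankrd1 at 36119844, inside the GENCODE genes, which reach further in the 5′ direction, and the windows are counted from the RefSeq starts. The 6 letters GGAATG, the core of the site bound by TEAD factors, or CATTCC on the other strand, were found in the 250 bases before 4 of these 5 RefSeq start sites, those of Anxa1, Il33 and Ankrd1. They were found in 12.6% of all 32851 promoters of that length. The AP-1 letters TGANTCA, which read the same on both strands and do not overlap the TEAD letters, were found in 0 of the 5, and in 6.75% of all promoters. A match of letters is a description and not a bound site, and both motifs were chosen with earlier results of these data known. The promoters of the 3 genes with a match are shown, Il33 with its upstream start site, with the TEAD letters in capitals. They span chr19:20390672-20390921 (minus strand), chr19:29924863-29925112 (plus strand) and chr19:36119845-36120094 (minus strand), in this order.
Anxa1: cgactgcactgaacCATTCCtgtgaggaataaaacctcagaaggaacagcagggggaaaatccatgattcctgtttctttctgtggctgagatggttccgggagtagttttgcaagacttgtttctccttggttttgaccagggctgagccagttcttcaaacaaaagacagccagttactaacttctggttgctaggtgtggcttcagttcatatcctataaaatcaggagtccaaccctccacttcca
Il33: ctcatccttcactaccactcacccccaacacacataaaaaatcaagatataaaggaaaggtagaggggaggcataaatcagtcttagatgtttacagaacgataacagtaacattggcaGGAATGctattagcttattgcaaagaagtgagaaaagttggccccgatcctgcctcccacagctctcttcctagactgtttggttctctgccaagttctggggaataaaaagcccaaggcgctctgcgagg
Ankrd1: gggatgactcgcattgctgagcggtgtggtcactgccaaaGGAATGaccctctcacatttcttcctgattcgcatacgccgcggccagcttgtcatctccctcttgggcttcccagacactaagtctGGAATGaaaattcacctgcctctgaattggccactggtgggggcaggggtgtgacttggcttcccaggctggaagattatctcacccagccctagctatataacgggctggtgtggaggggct

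The libraries differed in several ways besides their groups. Each had 12074 to 13290 genes at 1 FPKM or more, and relative depth, estimated from low values, ranged from 0.688 to 1.87 of the median library. The FPKM of all genes summed to between 450172 and 612427 in tumors and to between 583474 and 1016814 in normal libraries, so most normal libraries had the higher sum. Quantile normalization and median centring were run as alternatives, and some results depended on them. The part of the sum itself was not tested. No 2 libraries held identical values. Maf, the gene named by the genotype label, was at 2.62 to 7.40 FPKM in the KO-labelled tumors and at 1.63 to 7.26 FPKM in the WT-labelled tumors. It was above the 4 WT-young tumors (1.63 to 2.26 FPKM) in all 9 KO-labelled tumors and thus not lower with the KO label, so KO below is the label and not a measured loss of transcript. KO-8-hetero tumor replicate 2 and WT-young tumor replicate 2 had keratins of squamous epithelium (Krt5 at 1163 and 250.2 FPKM), against 0.568 FPKM or less in the other 22 libraries. The WT-old tumor had the highest summed B cell markers (962 FPKM, against 2.83 to 119 FPKM in the other 13 tumors). Xist was above 1 FPKM in 6 libraries, all KO-1-hetero or KO-8-hetero, 2 of them tumors. Every normal library of these 2 prefixes was among them, so with the KO label tumor and normal tissue were unbalanced for Xist. With the WT label they were unbalanced for the age word, with 4 young and 1 old tumors against 2 young and 2 old normal libraries. Results that rest on the squamous tumors or the WT-old tumor are given with and without them. For Xist a term was added to the fits as an alternative. With it the KO-label calls of Ly6a, Clu, Il33 and Msln in tumor against normal tissue were kept.

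The genes covered a wide range of levels. Over the 14 tumors, median FPKM fell from S100a6 (2426) through Ly6a (836), Anxa1 (320.1), Clu (173) and Anxa3 (105) to Msln (9.79), Il33 (9.55) and Ankrd1 (0.559). S100a6 was above Ly6a in 24 of 24 libraries. Clu was above Anxa3 in 12 of 14 tumors and in 0 of 10 normal libraries, so this pair changed places between the tissues. Msln and Il33 did not keep an order in tumors, where Msln was the higher in 5 of 14. In normal tissue Il33 was the higher of the pair in each of the 10 libraries.

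**Figure D1:**
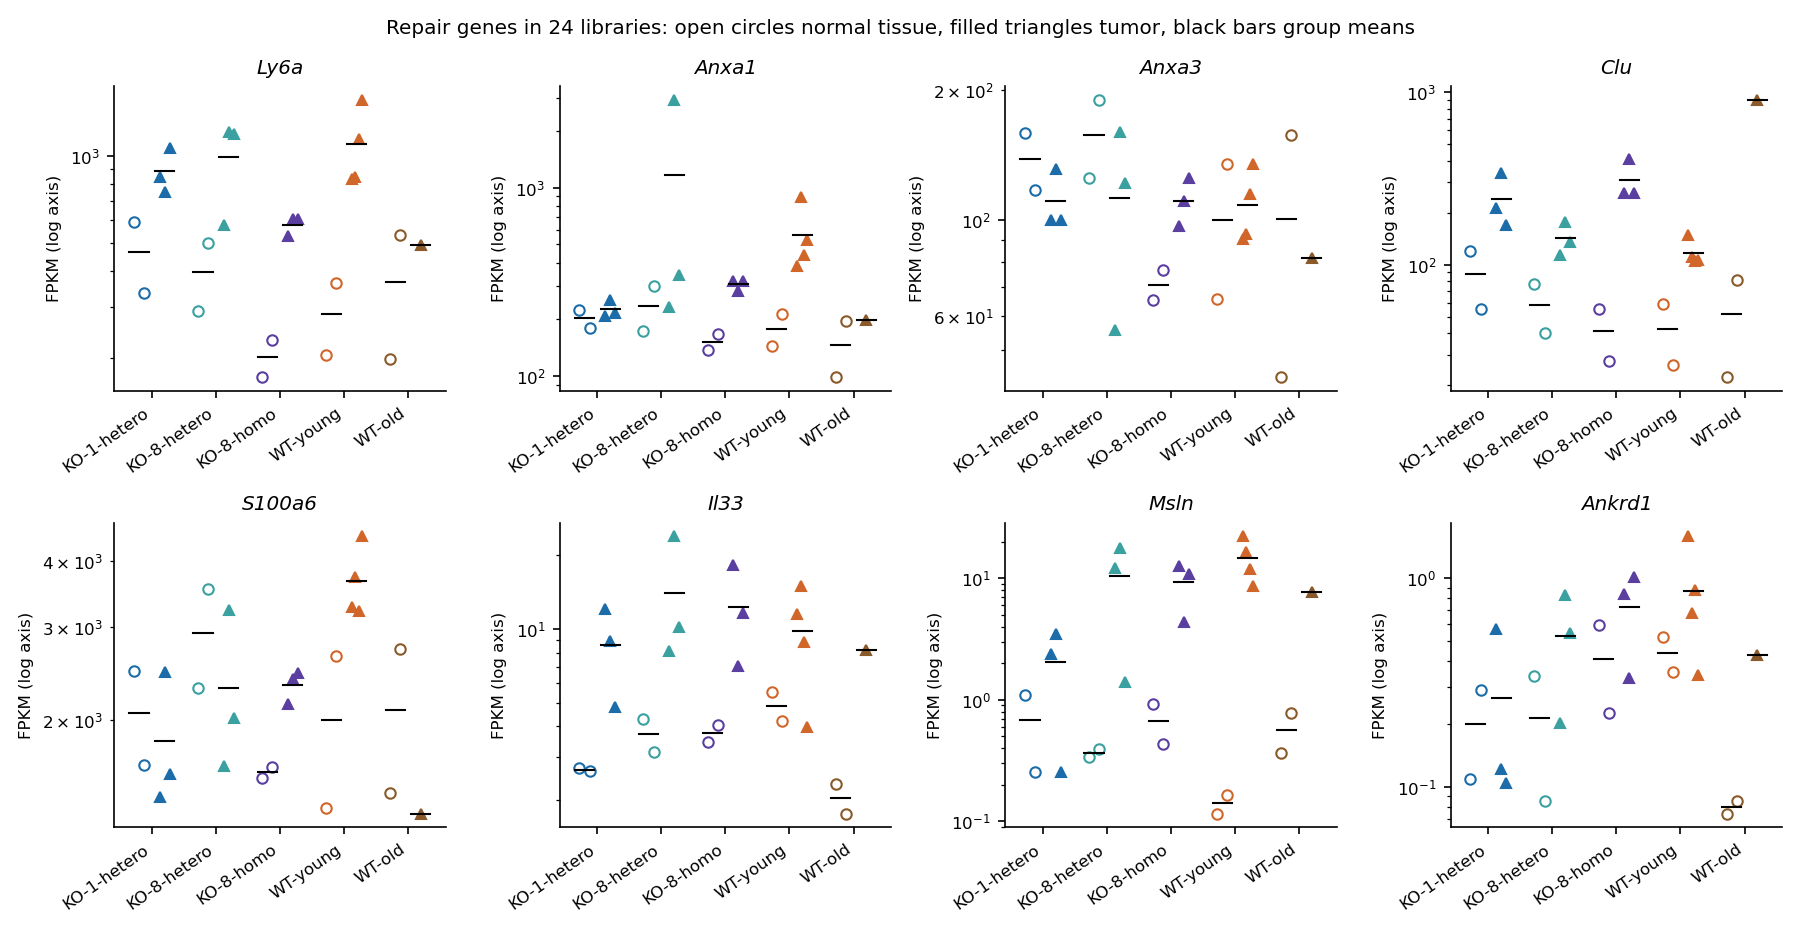
Level of each of the 8 genes in FPKM (log axis) by title prefix, with normal libraries as open circles, tumors as filled triangles and group means as black bars. Clu and Msln tumors mostly sit above the normal libraries, Anxa3 and S100a6 overlap, and single points stand out for Anxa1 (2929 FPKM, KO-8-hetero) and Clu (901 FPKM, WT-old).

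Tumor and normal tissue were compared first, to ask whether the repair genes were raised in these tumors. Of the 8 genes, 7 passed a filter of 1 FPKM or more in at least 4 libraries. Msln passed it through the tumors (13 tumors against 1 normal library at that level), so its presence among the tested genes already depends on a high tumor level. The same holds for 12 genes of the other lists, among them Fpr1, Fpr2, Tead4, the neutrophil markers Csf3r, Cxcr2 and Retnlg, and the squamous markers Krt4, Krt6a, Krt15 and Dsg3. With the WT label 5 genes rose and 0 fell, while of all 13799 tested genes 30.4% changed and 15.5% were higher in tumor. With the KO label 4 genes rose and 0 fell, while 47.2% of tested genes changed and 24.1% were higher. The median log2 difference of the 7 was 1.26 with the KO label and 1.48 with the WT label. Over all tested genes it was 0.02 with either label. Differences are of log2(FPKM + 1), which understates the change of low genes. In bulk tissue, a lower number of cells of a type and less RNA per cell cannot be told apart.

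**Figure D2:**
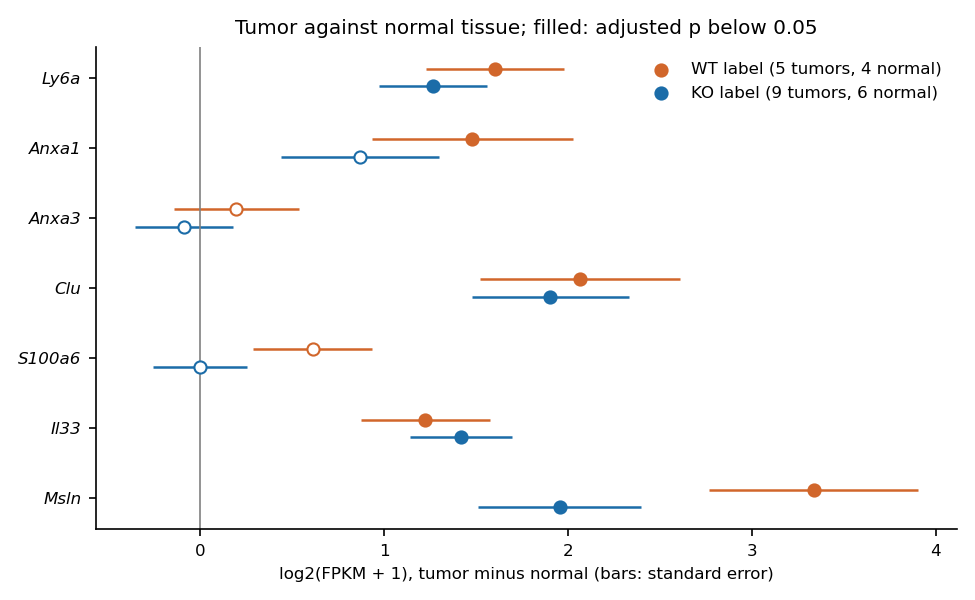
Tumor minus normal difference in log2(FPKM + 1) for the 7 tested genes with the WT label (orange) and the KO label (blue), with standard errors as bars and filled points for a limma adjusted p below 0.05. Msln has the largest difference with each label (3.34 and 1.95), and Anxa3 lies near 0 with both.

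Surface proteins came first. Ly6a, a small protein tethered to the membrane by a lipid anchor, was at 829.9, 845, 1141 and 1558 FPKM in WT-young tumors and at 494 FPKM in the WT-old tumor. In KO-labelled tumors it ranged from 528 to 1204 FPKM, with a median of 753. Normal libraries ranged from 173 to 593 FPKM, with a median of 313. Of the 14 tumors, 11 exceeded every normal library, and the groups overlapped through 1 KO-8-homo tumor, 1 KO-8-hetero tumor and the WT-old tumor. Ly6a rose by 1.60 (SE 0.374, limma adjusted p 0.00302) with the WT label and by 1.26 (SE 0.294, limma adjusted p 0.00146) with the KO label. It is the 1 member whose sequence is shared: 91 of the 906 stretches of 50 bases in its transcript (10.04%) also occur in Ly6c1, Ly6i, Ly6c2 or I830127L07Rik, so its level is uncertain by the fragments that could have been divided among them.

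Msln, a surface protein of mesothelial cells that is also described in fetal-like epithelium, had the largest difference. It was at 22.2, 16.4, 11.9 and 8.73 FPKM in WT-young tumors and at 7.68 FPKM in the WT-old tumor. KO-8-homo tumors had 12.6, 4.35 and 10.8 FPKM, and KO-8-hetero tumors had 12.2, 17.8 and 1.40 FPKM. KO-1-hetero tumors had the lowest values, 2.36, 3.49 and 0.255 FPKM. The 10 normal libraries ranged from 0.116 to 1.10 FPKM, with a median of 0.380. All but 1 of the 14 tumors exceeded every normal library, and the exception was KO-1-hetero tumor replicate 3. Msln rose by 3.34 (SE 0.567, limma adjusted p 0.000263) with the WT label and by 1.95 (SE 0.446, limma adjusted p 0.00125) with the KO label. With a pseudocount of 0.1 these became 5.0 and 2.87, as the normal values are low. Mesothelial markers were low in both tissues, and the part of mesothelium in the Msln level was not tested. Their sum was 0.746 to 2.61 FPKM in tumors and 1.33 to 4.26 FPKM in normal libraries, Upk3b, Lrrn4 and Wt1 were under 0.6 FPKM in all 24, and 0 of the 2 tested mesothelial markers passed with either label.

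Secreted and released proteins followed. Clu, a secreted chaperone that marks the revival stem cells of injured crypts, was at 148, 111, 105 and 106 FPKM in WT-young tumors and at 901 FPKM in the WT-old tumor. KO-labelled tumors ranged from 113 to 409 FPKM, with a median of 212, and the 10 normal libraries from 22.3 to 120.3 FPKM, with a median of 55.1. The groups touched at 1 library, KO-1-hetero normal replicate 1, and the other 9 normal libraries lay below every tumor. Clu rose by 2.07 (SE 0.543, limma adjusted p 0.00688) with the WT label and by 1.91 (SE 0.427, limma adjusted p 0.00108) with the KO label. Without the WT-old tumor the WT value was 1.48 (limma adjusted p 0.0121). In that tumor the summed markers of B cells (962 FPKM), T cells (107 FPKM) and smooth muscle (2852 FPKM) were also the highest of the 14 tumors, and their part in the Clu level was not tested.

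Il33, a cytokine stored in the nucleus and released from damaged cells, was at 11.6, 15.1, 8.87 and 3.96 FPKM in WT-young tumors and at 8.20 FPKM in the WT-old tumor. KO-labelled tumors ranged from 4.81 to 23.9 FPKM, with a median of 10.2. Normal libraries ranged from 1.76 to 5.50 FPKM, with a median of 3.30. Of the 14 tumors, 12 exceeded every normal library, and the lowest was WT-young tumor replicate 4. Il33 rose by 1.22 (SE 0.351, limma adjusted p 0.0116) with the WT label and by 1.42 (SE 0.276, limma adjusted p 0.000304) with the KO label. The WT call ended without the WT-old libraries (0.78, limma adjusted p 0.229). Its receptor Il1rl1 (ST2), found on regulatory T cells, mast cells and other immune cells, rose as well, by 2.94 (limma adjusted p 0.00298) with the WT label and by 3.04 (limma adjusted p 0.000123) with the KO label. The co-receptor Il1rap had a log2 difference of -0.38 (limma adjusted p 0.112) with the WT label and of -0.07 (limma adjusted p 0.691) with the KO label.

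Anxa1, a phospholipid-binding protein that acts on formyl peptide receptors and helps inflammation to resolve, varied widely between tumors. WT-young tumors were at 386, 893, 441 and 527 FPKM and the WT-old tumor at 198 FPKM. KO-8-homo tumors had 320.2, 283 and 319.9 FPKM, KO-8-hetero tumors had 231, 2929 and 346 FPKM, and KO-1-hetero tumors had 209, 254 and 216 FPKM. Normal libraries ranged from 98.8 to 300.0 FPKM, with a median of 176. The 2 highest tumors were the 2 with squamous keratins, and 8 of 14 tumors exceeded every normal library. Anxa1 rose by 1.48 (SE 0.547, limma adjusted p 0.0439) with the WT label, and its difference with the KO label was 0.87 (SE 0.430, limma adjusted p 0.0985).

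These Anxa1 calls were near the threshold. The WT call was lost in 13 of 34 alternatives, over which the limma adjusted p ranged from 0.000453 to 0.130. The difference itself stayed between 1.22 and 1.76 in the fits without 1 library. The call was lost without any 1 of the 4 WT-young tumors (0.0632, 0.114, 0.0698 and 0.0711 for replicates 1 to 4) and without WT-young normal replicate 1 (0.0816). The same held without either WT-old normal library (0.130 and 0.0560), KO-1-hetero normal replicate 2 (0.0506) or KO-8-homo tumor replicate 3 (0.0507). Without the 2 tumors with squamous keratins the WT difference was 1.22 and still passed, and the KO difference did not pass. Without these and the WT-old tumor the KO difference was 0.49 and passed (limma adjusted p 0.0355). The receptor Fpr2 rose by 1.40 (limma adjusted p 0.000544) with the WT label and by 1.04 (limma adjusted p 0.000351) with the KO label, and Fpr1 rose by 1.41 (limma adjusted p 0.000145) with the KO label. Both receptors are abundant on neutrophils, whose summed markers were at 16.1 to 1759 FPKM in tumors and at 2.25 to 31.7 FPKM in normal libraries. The part of neutrophils in the Anxa1 level was not tested.

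**Figure D3:**
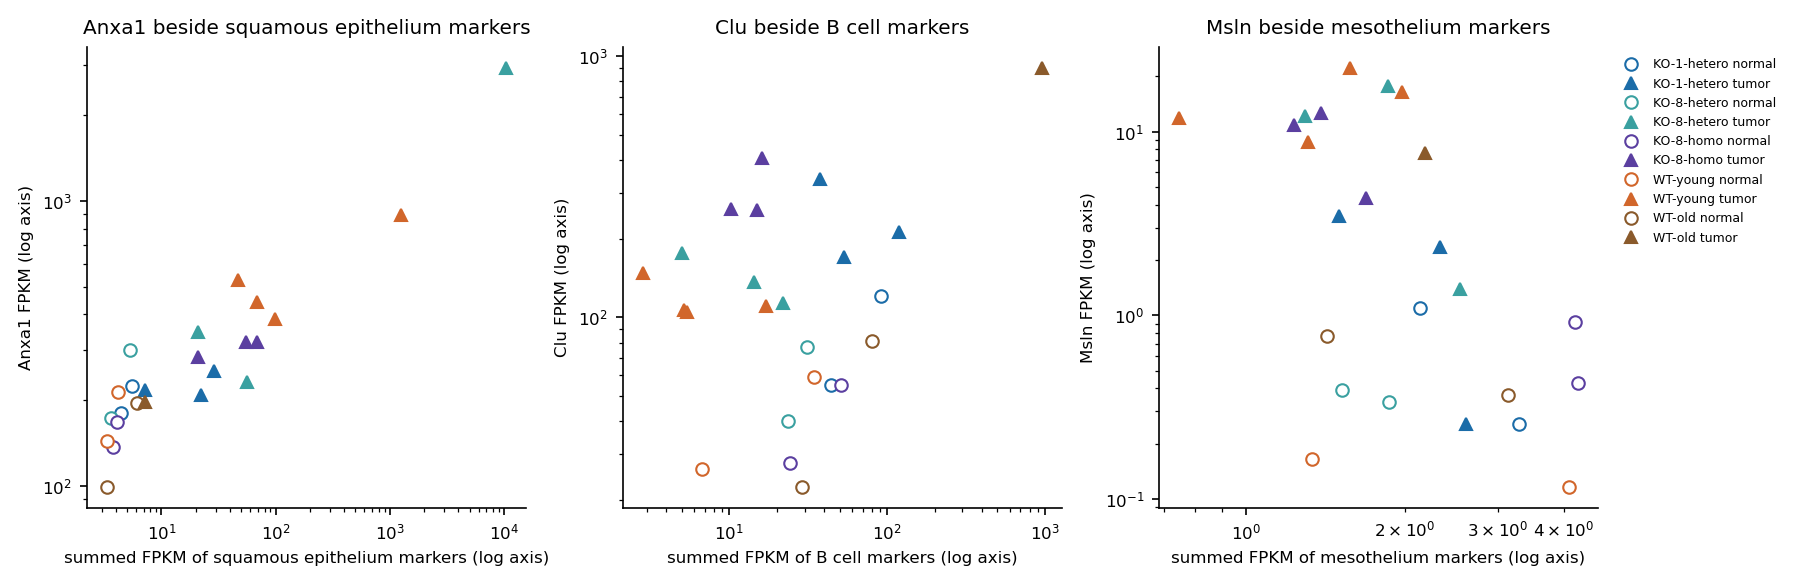
Anxa1, Clu and Msln in FPKM against the summed FPKM of squamous epithelium, B cell and mesothelium markers (log axes), 1 point per library, circles for normal tissue and triangles for tumors. The 2 tumors with squamous sums of 10486 and 1253 FPKM have the highest Anxa1, and the WT-old tumor stands alone in the Clu panel. Msln is higher in most tumors, and the mesothelial sum is low in tumors and normal libraries.

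Anxa3 and S100a6, calcium-dependent proteins of the cell interior, did not pass with either label. Anxa3, a further annexin, was at 55.7 to 159 FPKM in tumors and at 43.4 to 189 FPKM in normal libraries, and 0 of 14 tumors exceeded every normal library. Its log2 differences were 0.20 (SE 0.339, limma adjusted p 0.688) with the WT label and -0.09 (limma adjusted p 0.806) with the KO label. S100a6, a small calcium-binding protein also called calcyclin, was at 3273, 3732, 3216 and 4452 FPKM in WT-young tumors and at 1332 FPKM in the WT-old tumor, its lowest tumor. The WT-young normal libraries were at 1368 and 2644 FPKM, below all 4 tumors of that prefix. With the WT label the difference was 0.61 (SE 0.324, limma adjusted p 0.151), and without the WT-old tumor it passed at 0.90 (limma adjusted p 0.0210). With the KO label S100a6 differed by -0.00 (limma adjusted p 0.994), although quantile normalization gave 0.84 (limma adjusted p 0.00663), so its direction depends on the scaling between libraries.

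Ankrd1, a nuclear cofactor and a much used YAP target, reached 1 FPKM in 2 of 24 libraries, both tumors, and was not tested. It was at 1.59, 0.683, 0.874 and 0.343 FPKM in WT-young tumors and at 0.104 to 1.01 FPKM in KO-labelled tumors. Normal libraries ranged from 0.0745 to 0.594 FPKM, and 6 of 14 tumors exceeded every one of them. The mean was higher in tumor within each of the 5 title prefixes, with overlapping ranges in 4 of them.

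Within the title prefixes the pattern was uneven. Ly6a, Clu, Il33, Msln, Anxa1 and Ankrd1 had a higher mean in tumor in 5 of 5 prefixes, and Anxa3 and S100a6 in 2 of 5. For Clu the ranges were apart in each prefix, and its ratio of means ran from 2.42 in KO-8-hetero to 7.48 in KO-8-homo among prefixes with 3 or more tumors. For Msln the ratio was 3.0 in KO-1-hetero, where the ranges overlapped, and 13.8 in KO-8-homo, 28.6 in KO-8-hetero and 106 in WT-young, where they were apart. For Il33 the ratio ran from 2.03 to 4.01, with overlapping ranges in WT-young. KO-8-homo was the prefix in which all 7 tested genes had tumor ranges above the normal ranges, Anxa3 (ratio 1.56) and S100a6 (1.47) included, with only 2 normal libraries behind each value.

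Other genes of the same programme were read from lists of general knowledge. Of 22 further tested genes of fetal-like and wound repair epithelium, 13 rose and 0 fell with the WT label (median log2 difference 1.25), and 18 rose and 0 fell with the KO label (median 1.58), where 15.5% and 24.1% of all tested genes were higher. Spp1 (osteopontin, a secreted matrix protein also made by macrophages) rose by 3.11 and 3.70, and the tight junction gene Cldn4 by 3.07 and 3.09, in that order of labels. In FPKM, WT-labelled Cldn4 went from 16.0 ± 11.7 (SD, n = 4) to 169 ± 88.9 (SD, n = 5), and KO-labelled Cldn4 from 16.9 ± 5.67 (SD, n = 6) to 167 ± 82.7 (SD, n = 9). The cytokine receptor Tnfrsf12a and the urokinase receptor Plaur each rose by 1.92 with the KO label. Without the 2 tumors with squamous keratins, 11 and 17 of the 22 rose.

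Of 20 tested YAP/TAZ targets, 3 rose and 1 fell with the WT label (median 0.19), and 9 rose and 2 fell with the KO label (median 0.54). With the WT label this share is near that of all tested genes, of which 30.4% changed and 15.5% were higher, and with the KO label 47.2% changed and 24.1% were higher. Myof, a membrane repair protein, rose by 1.33 and 1.38, and Rbms3 by 0.95 and 1.17. Cyr61 (Ccn1), a matricellular protein, rose by 1.38 with the KO label and had 0.56 (limma adjusted p 0.237) with the WT label. Gadd45a, which also responds to DNA damage, fell by 1.04 with the WT label, from 21.7 ± 7.33 (SD, n = 4) to 9.66 ± 1.16 FPKM (SD, n = 5), and by 0.46 with the KO label. The enzyme gene Nt5e (CD73) rose by 1.65 with the WT label.

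Among 13 components of the YAP/TAZ pathway, 1 rose and 2 fell with the WT label, and 5 rose and 1 fell with the KO label. Neither count exceeds the share of all tested genes that changed (30.4% and 47.2%). Tead2, a DNA-binding partner of YAP, rose by 1.91 and 1.76, while Tead3 fell by 0.63 and 0.44. The Hippo regulator Nf2 fell by 0.48 with the WT label. With the KO label Tead1 rose by 0.89, Tead4 by 0.82 and the Hippo kinase Lats1 by 0.47. The 11 tested crypt stem cell genes mark the homeostatic programme. Of these 5 rose and 1 fell with the WT label, where 30.4% of all tested genes changed and 15.5% were higher. With the KO label 6 rose and 1 fell, where 47.2% of all tested genes changed and 24.1% were higher. Lgr5, the classical crypt stem cell marker, rose by 1.93 and 2.69, Axin2 by 1.86 and 2.14, and Smoc2 by 1.40 and 2.18. Lrig1, a brake on growth factor receptors, fell by 0.99 and 0.56. Without the 2 tumors with squamous keratins 7 of the 11 rose with KO and 2 with WT.

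**Figure D4:**
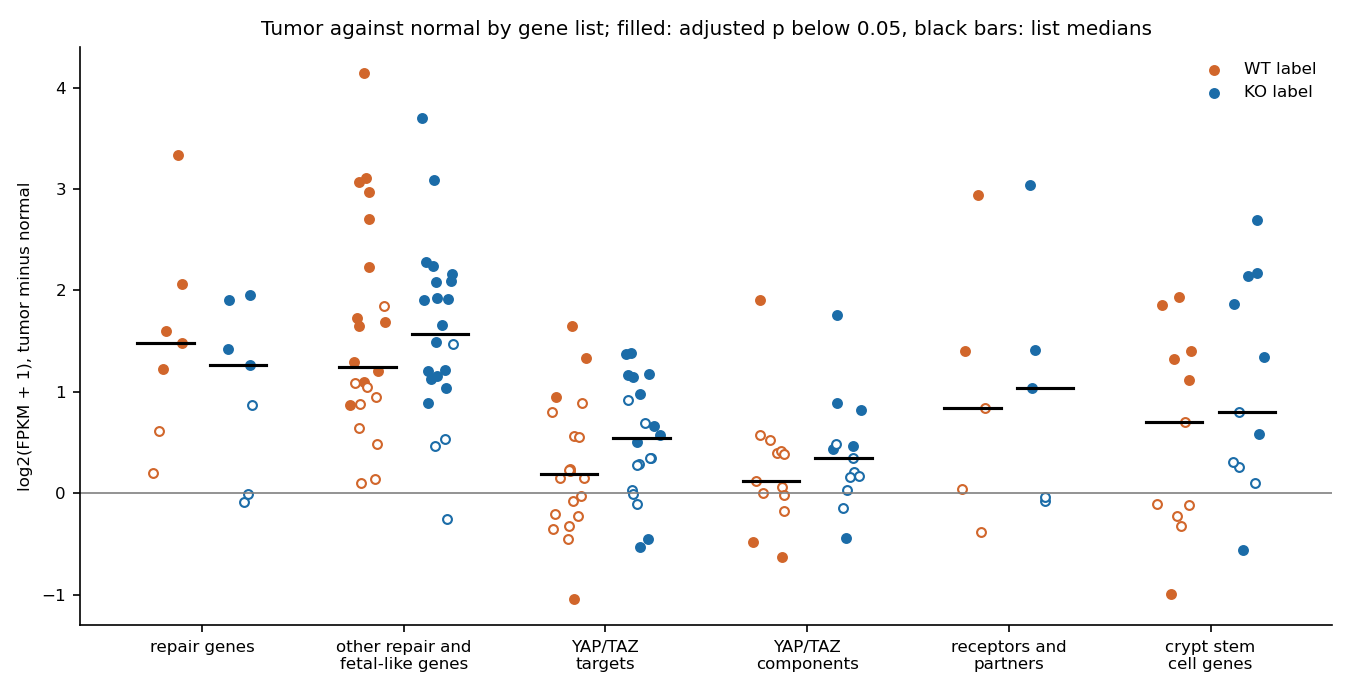
Tumor minus normal difference in log2(FPKM + 1) for each tested gene of 6 lists, WT label in orange and KO label in blue, filled for a limma adjusted p below 0.05, with black bars for list medians. The repair genes and the other repair and fetal-like genes have the highest medians (1.48 and 1.25 with the WT label), and the YAP/TAZ targets lie closer to 0 (0.19).

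The cell makeup of the pieces differed between the tissues at the same time. Of all tested genes, 30.4% changed and 15.5% were higher in tumor with the WT label. With the KO label 47.2% changed and 24.1% were higher. Smooth muscle markers fell in tumors, 6 of 6 with each label, and neutrophil markers rose, 5 of 5 in KO-labelled and 4 of 5 in WT-labelled tumors. The neutrophil markers Csf3r, Cxcr2 and Retnlg and the squamous markers Krt4, Krt6a, Krt15 and Dsg3 passed the filter through the tumors. Counts of these markers as higher in tumor thus depend in part on the filter. Of 6 macrophage markers 4 rose with each label, and of 7 fibroblast markers 2 rose with WT, while 5 rose and 1 (Lum) fell with KO. Of 8 epithelial markers 2 fell with KO, Krt19 and Krt8, and 0 changed with WT. Of 7 endothelial markers 1, Cdh5, rose with KO and 0 with WT. With all libraries, the epithelial, endothelial and T cell counts did not exceed the shares of all tested genes that changed. The same held for the fibroblast count with WT and the squamous count with KO, and the squamous count with WT was near that share. Squamous markers rose for 2 of 6 with each label, Krt15 and Krt13, and without the 2 tumors with squamous keratins for 4 with WT and 5 with KO. Of 6 T cell markers 0 rose with WT and 1 with KO, and without those tumors 1 and 3. Without them 1 fibroblast marker rose with WT and 0 endothelial markers with KO. Counts without these tumors, here and for the lists above, come from another fit, whose share of all tested genes is not given. The part of these shifts in the repair genes was not tested.

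The comparison of KO with WT, which the labels name, was then made in each tissue. In tumors 0 of the 7 genes passed, as did 0.00725% of all tested genes (1 gene, and 1147 at an unadjusted p below 0.05). Before adjustment 1 of the 7 had a p below 0.05, Msln, at -1.17 (SE 0.472, limma adjusted p 0.508). The WT-labelled tumors averaged 13.4 ± 5.99 FPKM (SD, n = 5), and the KO-labelled ones 7.25 ± 6.19 FPKM (SD, n = 9). In normal tissue 0 of the 7 passed, as did 0% of all tested genes (645 at an unadjusted p below 0.05), and 0 of the 7 had an unadjusted p below 0.05. The interaction asked if tumor and normal tissue differed by another amount under each label, with 0 of 7 genes and 0% of all tested genes past the threshold (654, and 0 of the 7, at an unadjusted p below 0.05). For Anxa1 the interaction was -0.61 (SE 0.695, limma adjusted p 0.986) and for Msln -1.38 (SE 0.721, limma adjusted p 0.986), so the labels were not shown to differ for either.

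Single KO groups were set against the 4 WT-young tumors, which all 3 comparisons share. In KO-1-hetero tumors 1 of 7 genes passed, where 2.88% of all tested genes did. This was Msln, at 2.36, 3.49 and 0.255 FPKM against 8.73 to 22.2 FPKM, a log2 difference of -2.49 (SE 0.568, limma adjusted p 0.0317). The ranges did not overlap. The difference stayed between -2.87 and -1.95 in the fits without 1 library. The call was lost without KO-1-hetero tumor replicate 1 (-2.66, limma adjusted p 0.103) or 3 (-1.95, limma adjusted p 0.151). It was also lost without WT-young tumor replicate 1 (-2.28, 0.0722), 2 (-2.42, 0.0802) or 3 (-2.57, 0.0539). Over 34 alternatives the limma adjusted p ranged from 0.00657 to 0.151.

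Other measures moved with Msln in KO-1-hetero tumors. Xist was above 1 FPKM in replicate 3, the tumor with the lowest Msln, and in KO-8-hetero tumor replicate 3, which had the next lowest (1.40 FPKM). With a term for Xist the Msln difference was -1.77 and passed (limma adjusted p 0.0390). All 4 B cell markers, 2 of 6 smooth muscle markers (Cnn1 and Des), 1 of 6 T cell markers (Cd3e) and 1 of 11 crypt stem cell genes (Lrig1) were higher in this group, and the epithelial marker Krt18 was lower (-0.77, limma adjusted p 0.0315). The part of each in the Msln value was not tested. Of the 22 other repair and fetal-like genes 3 fell and 0 rose in the same comparison, where 2.88% of all tested genes changed, and 1 of the 3 was Cldn4, which fell by 1.52 (limma adjusted p 0.0356). S100a6 was at -1.03 (SE 0.296, limma adjusted p 0.0667), where the 3 tumors lay between 1431 and 2465 FPKM and the WT-young tumors between 3216 and 4452 FPKM. It passed without KO-1-hetero tumor replicate 2 (-1.27, limma adjusted p 0.0487), KO-8-hetero tumor replicate 2 (0.0458), or either WT-young normal library (0.0462 and 0.0460). Anxa1 was at -1.23 (limma adjusted p 0.257, and 0.0275 without KO-8-hetero tumor replicate 2) and Clu at 0.98 (limma adjusted p 0.213).

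In KO-8-hetero tumors 0 of 7 genes passed, where 0.00725% of all tested genes did (961 at an unadjusted p below 0.05). S100a6 alone had an unadjusted p below 0.05, at -0.72 (limma adjusted p 0.705). In KO-8-homo tumors 0 of 7 genes passed, where 0.457% did (1399 at an unadjusted p below 0.05), and 3 had an unadjusted p below 0.05. Clu was at 258, 409 and 259.8 FPKM in these tumors, above the 105 to 148 FPKM of WT-young (1.37, SE 0.418, limma adjusted p 0.220). Ly6a was at 528, 606 and 603 FPKM, below the 829.9 to 1558 FPKM of WT-young (-0.87, SE 0.356, limma adjusted p 0.410), and S100a6 was at -0.64 (limma adjusted p 0.486).

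**Figure D5:**
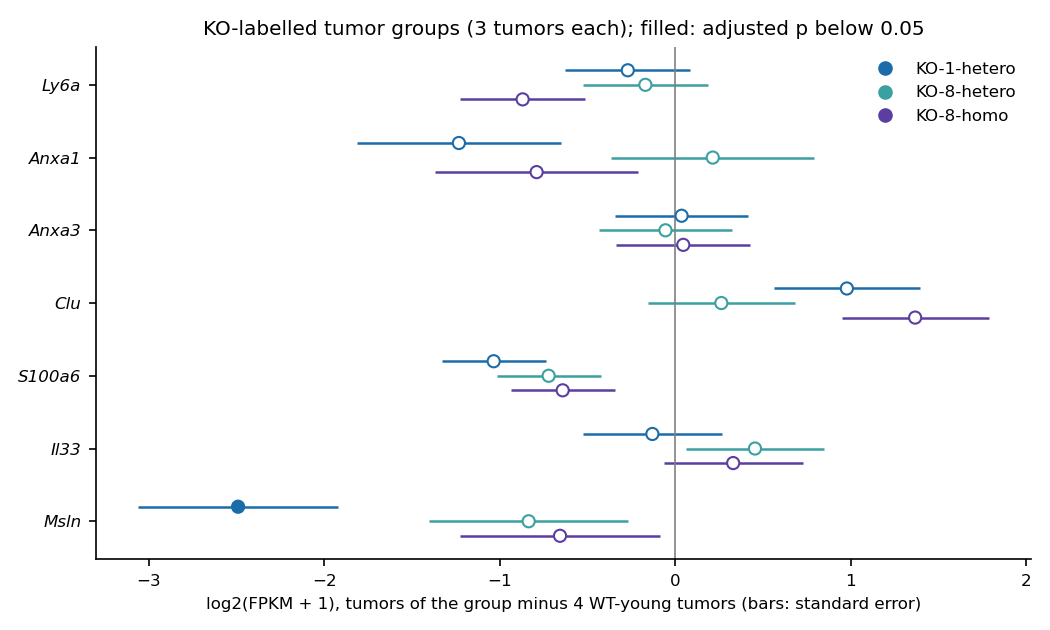
Difference in log2(FPKM + 1) between the 3 tumors of each KO group and the 4 WT-young tumors for the 7 tested genes, with standard errors as bars and a filled point for a limma adjusted p below 0.05. The filled point is Msln in KO-1-hetero (-2.49), and Clu lies furthest to the right in KO-8-homo (1.37).

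Between KO groups, zygosity and the number in the title were compared. KO-8-homo against KO-8-hetero tumors gave 0 of 7 genes, where 0.0507% of all tested genes passed (801 at an unadjusted p below 0.05). Clu had an unadjusted p below 0.05, at 1.11 (SE 0.447, limma adjusted p 0.780), with 258 to 409 FPKM against 113 to 177 FPKM. KO-1-hetero against KO-8-hetero tumors gave 0 of 7, where 0% of all tested genes passed (1363 at an unadjusted p below 0.05). Msln was at -1.66 (limma adjusted p 0.346) and Anxa1 at -1.45 (limma adjusted p 0.441), and Msln passed without KO-8-hetero tumor replicate 3 (-2.56, limma adjusted p 0.0217).

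Whether the genes moved together was asked across the 14 tumors. Over the 21 pairs of tested genes Pearson's r of log2(FPKM + 1) ranged from -0.66 to 0.68, with 13 pairs above 0. By a two-sided permutation test 0 of 21 pairs passed on r and 1 on Spearman's rho after adjustment. That pair was Anxa1 and S100a6 (r 0.68, permutation p 0.00322, adjusted 0.0676; rho 0.88, permutation p 7.0e-05, adjusted 0.00147). Without the 2 tumors farthest from the Anxa1 median, which are those with squamous keratins, r was 0.93, and without the WT-old tumor as well it was 0.91. Ly6a and Clu ran against each other (r -0.66, permutation p 0.00824, adjusted 0.0865; rho -0.64, permutation p 0.0154, adjusted 0.0923). Without the 2 tumors farthest from the Ly6a median r was -0.50, and centred on the title group means it was -0.05. Ly6a and Msln had r of -0.18 (permutation p 0.545, adjusted 0.762; rho -0.08, permutation p 0.785, adjusted 0.895).

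The genes most like each member across the 14 tumors differed from member to member, given here as a description over libraries that share tissue and depth. For Ly6a they were Krt19 (r 0.94), Slc35b1, Cdh17, Misp and Krt8 (0.92), of which Krt19 and Krt8 are among the epithelial markers used here. Anxa1 was closest to Tgm5 (0.97), Fam188a, Krt13 (0.96), Cysrt1 and Ly6g6c, of which Krt13 is a squamous keratin. Without the squamous and WT-old tumors its closest was Ctnna1 (0.96, 11 tumors). Il33 was closest to Dusp1 (0.95), Layn, Gja1, Il1b and Ctps, and Dusp1 remained its closest in the 11 tumors (0.94). S100a6 was closest to Tax1bp3 (0.95), Tes, Atg101, Ak3 and Cd9, and Anxa3 to Rab27b (0.93), Limk2, Sh2d4a, Paqr5 and S100a1. The closest to Clu were Srpk3 (0.91), Ilk, P4htm, Klhl17 and Zfp189, and in the 11 tumors Itgb8 (0.97). Msln was closest to Syncrip (0.95), Agbl3, Cdkl3, Lsg1 and Trdmt1, and in the 11 tumors to Ip6k2 (0.97).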

How the data were processed

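RNA was measured in 24 libraries of mouse colorectal tissue, prepared with a miRNeasy kit and a stranded TruSeq mRNA kit per the labels' protocols. The authors deposited 1 table of FPKM values per library. The submitters' processing notes name TopHat2 2.1.1, Bowtie2 2.2.8, SAMtools 0.1.18, Cuffdiff 2.2.1 and the build mm10, without settings. FPKM values are not counts and carry no fragment totals, so depth is known only relative to the median library and no counting interval is given.

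Values were taken as log2(FPKM + 1), and the 13799 genes that reached 1 FPKM in 4 or more libraries were tested with limma 3.58.1 (R 4.3.3; lmFit, contrasts.fit, eBayes with trend), two-sided, adjusted by Benjamini-Hochberg over all tested genes, with a threshold of 0.05. All 24 libraries entered 1 model of 4 label and tissue combinations and another of 10 title groups. The fits were tested on simulated data. Correlations used 100000 permutations (Python 3.11.15, scipy 1.17.1). Nothing says that replicates came from separate animals, so p-values measure the spread between these libraries, which may be technical.

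The members, lists, tests and motifs were chosen with earlier results of these data known. Named genes are the 8 members, up to 4 members of each other list with the smallest p among those past the threshold, per label, in tumor against normal tissue, and the 5 genes with the highest r per member. Other fitted values were chosen after they were seen: for members in the other comparisons those with an unadjusted p below 0.05, and single genes that bear on a result. A few genes of the lists are counted but not reported here by name. Of the pathway lists, Anxa10, Fjx1, Fpr3 and Olfm4 did not pass the filter, and Muc16 and Ly6g are not among the listed symbols. Alternatives were another pseudocount, no filter, quantile normalization, median centring, no WT-old libraries, each library left out, an Xist term, a replicate block and no trend. Those without tumors with Krt5 above 1 FPKM were added after seeing the data.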

Additional observations from a re-analysis of the deposited data

Results flagged for a closer look

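Single libraries far from the rest of their group were looked for in 40 sets of 1 gene and 1 group of 4 to 9 libraries, by the gap to the nearest library relative to the group's range on the log2 scale. Chance gives such a gap in about 1 of 20 sets, and 5 were found. Anxa1 was at 2929 FPKM in KO-8-hetero tumor replicate 2, far above the other 8 KO-labelled tumors, in the library with the highest squamous keratins. Anxa3 was at 55.7 FPKM in KO-8-hetero tumor replicate 1, below the other KO-labelled tumors. Clu was at 148 FPKM in WT-young tumor replicate 1, above the other 3 WT-young tumors at 105 to 111 FPKM. Clu was at 901 FPKM in the WT-old tumor, above the other 4 WT-labelled tumors. S100a6 was at 1332 FPKM in the WT-old tumor, below the same 4 tumors at 3216 to 4452 FPKM. The WT-old tumor and KO-8-hetero tumor replicate 2 were left out in turn, and the values without them stand beside the results they touch.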

How the results depend on the processing

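Ly6a, Clu and Msln kept their call and direction in tumor against normal tissue in 34 of 34 alternatives with each label, and Il33 did with the KO label. The count with the WT label fell from 5 to 3 without the WT-old libraries (Ly6a, Clu and Msln). The Il33 difference itself fell from 1.22 to 0.78. Il33 averaged 2.04 FPKM in WT-old normal libraries and 4.86 FPKM in WT-young ones. The part of age and of the smaller number of libraries was not tested. In KO-1-hetero against WT-young tumors the count was 0 to 3 over the fits that each left out 1 library, and in KO-1-hetero against KO-8-hetero tumors 0 to 1. Pairs that passed on r rose from 0 to 3 when centred on title groups, to 1 without the tumors with Krt5, and to 1 without these and the WT-old tumor; the cause was not tested. Small differences changed sign. With the KO label Anxa3 became 0.28 under quantile normalization and 0.13 with an Xist term, and ran from -0.25 to 0.057 over the fits without 1 library. S100a6 became 0.84 under quantile normalization and 0.050 with an Xist term, and ran from -0.089 to 0.15 over the fits without 1 library. With the WT label Anxa3 ran from -0.14 (without WT-old normal replicate 1) to 0.47. Median centring moved the split of called genes with the WT label from 2143 higher and 2049 lower to 1613 and 2538, and with the KO label from 3321 and 3199 to 2503 and 3975. Same-numbered tumor and normal libraries of a prefix deviated together (r above 0.1) in 1 of 8 pairs. With 2 normal libraries per prefix, their deviations mirror each other, so this check is weak. In KO-1-hetero and KO-8-hetero, Xist was above 1 FPKM in normal replicates 1 and 2 but not in tumor replicates 1 and 2. The numbers were not taken to pair the samples. With the number as a replicate block, S100a6 with the KO label was 0.033, Anxa1 passed with the KO label (1.01, adjusted p 0.0495) and no longer with the WT label (1.49, adjusted p 0.0739). Fragment totals are unknown, so the precision of low genes such as Ankrd1 and Msln in normal tissue cannot be stated.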
